A study of Mus musculus with 144 samples.

Results

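Blood miRNA of mice that received only dispersion media (DM, the particle-free vehicle and negative control) was compared between 12 and 6 months after the exposure. The comparison held 16 of the 144 arrays of the series, chosen by their source labels alone: 8 DM arrays of month 12 and 8 DM arrays of month 6, 1 mouse per array. All were male C57BL/J6 mice that arrived at 7 weeks of age and were housed singly. The rest of the series held DM mice of month 1 and mice given 1, 10, 40 or 80 µg of multi-walled carbon nanotubes (MWCNT) or 120 µg of crocidolite asbestos, each at months 1, 6 and 12. The question of the comparison was whether blood miRNA differed between these 2 months in mice without particles. The age of the animals, the time since the exposure and the handling at each collection cannot be told apart here.

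miRNAs are short RNAs that guide a silencing complex to messenger RNAs with a matching site, which lowers translation or speeds decay. Blood miRNA comes from red cells, platelets and white cells, and from vesicles and protein complexes in plasma. Fewer cells of a type and less RNA per cell cannot be told apart in such samples. The array labels each probe with an identifier that the sources used here do not pair with a miRNA, so probes are given by identifier, with no miRNA name or sequence, and the cell type of the signal could not be checked against marker miRNAs.

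RNA was labelled with 1 dye and each mouse probe was read in 3 spots. Values are log2 intensities after background correction with an offset of 50 and quantile normalization between arrays. The offset compresses the differences of dim probes. A probe was tested when it was above the detection threshold on all 8 arrays of at least 1 of the 18 groups of the series, which held for 742 of 1262 mouse probes. Precision was limited by the number of arrays, with a median standard error (SE) of the difference of 0.11 on the log2 scale.

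The month 6 arrays varied more in brightness than the month 12 arrays. Brightness is the trimmed mean log2 intensity of the 411 probes above threshold on all 144 arrays, before scaling. It was 9.49 ± 0.28 (SD, n = 8) in DM at month 12, from 9.13 to 9.98, and 9.00 ± 0.73 (SD, n = 8) in DM at month 6, from 7.97 to 10.01. Replicates 3 and 4 of DM month 6, at 7.97 and 8.18, were the 2 dimmest arrays of all 144, and replicate 8 of DM month 6, at 8.55, was the 4th dimmest. The main results are therefore given with and without the 2 dimmest arrays. The group means of brightness differed by 0.48 (exact permutation test, two-sided, p = 0.105, adjusted p = 0.420 over 4 array measures). Without the 2 dimmest arrays they differed by 0.17 (exact permutation test, p = 0.442, adjusted p = 1). Those 2 arrays, both of month 6, were left out for their low brightness, so a smaller difference was fixed in advance. The second test therefore does not show that the remaining arrays matched in brightness.

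The other array measures did not pass the test. The number of mouse probes above threshold was 851 ± 136 at month 12 and 801 ± 141 at month 6 (SD, n = 8 each, exact permutation test, p = 0.473, adjusted p = 0.631). The median local background was 61.4 ± 2.6 intensity units at month 12 and 61.9 ± 4.6 at month 6 (exact permutation test, adjusted p = 0.833, n = 8 each). The detection threshold was 22.8 ± 3.2 intensity units at month 12 and 26.3 ± 7.3 at month 6 (exact permutation test, adjusted p = 0.478, n = 8 each). These tests allow a two-sided p far under 0.05, since 8 arrays against 8 can be split in 12870 ways.

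**Figure D1:**
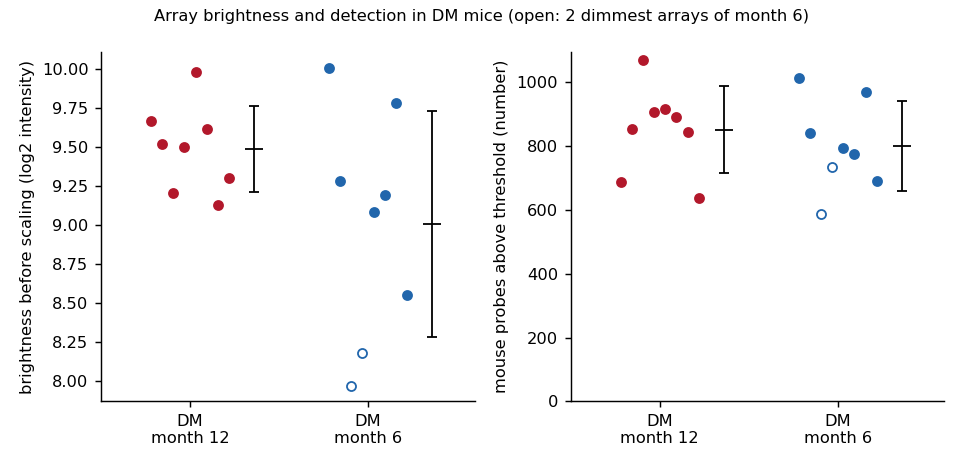
Brightness before scaling (left, log2 intensity) and the number of mouse probes above the detection threshold (right) on each DM array, with the mean and SD beside the points. The 2 open points, DM month 6 replicates 3 and 4, lie below every month 12 array in brightness, at 7.97 and 8.18 against a lowest month 12 value of 9.13.

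The groups also differed in when they were scanned. The DM month 12 arrays were scanned on 5 of 7 days (days 3 to 7) and the DM month 6 arrays on 4 (days 1, 2, 5 and 6). Only days 5 and 6 held both groups, with 1 array of each month per day, and no slide held both. On day 6 the DM month 12 array, replicate 7, came from a further scan marked redip, a step that the sources used here do not explain. Both groups had 3 arrays at position A and 5 at position C of their slides, so position was balanced. Correlations over the 742 probes were 0.96 to 1.00 within DM month 12 (median 0.99) and 0.92 to 1.00 within DM month 6 (median 0.98). Between the months they were 0.91 to 1.00 (median 0.98). Probe levels ran over a wide range, which keeps such correlations high, so they do not show that the arrays were alike.

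Few probes differed between the months, and by small amounts. With limma, 2 of 742 probes were called, both lower at month 12, where a call needed a fold of 1.5 or more, an unadjusted p under 0.05 and an adjusted p (Benjamini-Hochberg) under 0.10. That is a share of 0.27%. Without the fold limit 12 probes passed (1.62%), of which 5 were higher and 7 lower at month 12, with absolute log2 differences from 0.19 to 0.63. Unadjusted p was under 0.05 for 96 probes (12.9%), 37 higher and 59 lower. Leaving out 1 array gave 0 to 7 calls, with 0 without DM month 6 replicate 3, the dimmest, or without DM month 12 replicate 6. The median difference over all probes was 0.00 and the median absolute difference 0.09, on the log2 scale.

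None of these calls held without the 2 dimmest arrays. With 8 month 12 arrays against the remaining 6 of month 6, limma called 0 probes, and 0 passed an adjusted p under 0.10 with no fold limit (lowest adjusted p = 0.290). Unadjusted p was under 0.05 for 41 probes (5.53%), 24 higher and 17 lower. The 12 probes that had passed with all arrays kept their direction, and 9 of them kept an unadjusted p under 0.05. A median of 62.7% of their log2 difference was left, from 29.6% to 105%. The arrays of this fit were among the 16 that chose the 12 probes, so these values are a description and no independent check. Of the 96 probes at an unadjusted p under 0.05 with all arrays, 95 also kept their direction. The median SE was 0.11 in both fits.

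The count also changed where background correction and scaling were both replaced. The authors' deposited log2 values, scaled by 1 constant per array, gave 139 calls (8 higher and 131 lower at month 12), and plain background subtraction with the same kind of scaling gave 115 (8 higher, 107 lower). The median of all 742 probes was then lower at month 12, by -0.30 and -0.27. Where only the scaling was replaced (normexp with the 20% trimmed mean), the count was 2, 1 in each direction, with a median of -0.25. In that limma fit 311 probes had an unadjusted p under 0.05 and 2 passed the adjusted p, against 96 and 12 in the main fit. Of the probes named below, only ORB_1210072 kept an adjusted p under 0.10 there (0.0770). Without the 2 dimmest arrays each of these 3 settings called 0 probes. The 6 probes named below, chosen on these same arrays, kept their direction under all 3.

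**Figure D2:**
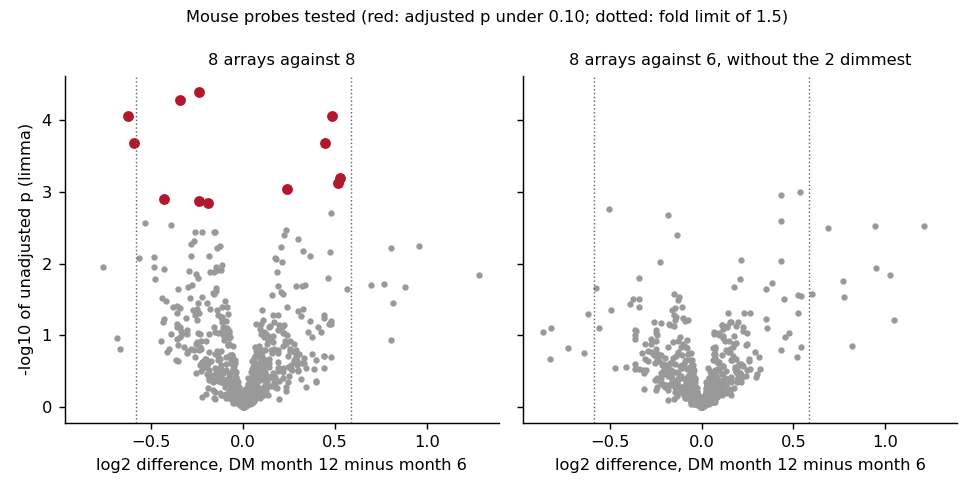
Log2 difference between DM month 12 and DM month 6 (x axis) against the −log10 of the unadjusted limma p (y axis) for the 742 probes, with all arrays (left) and without the 2 dimmest DM arrays of month 6 (right). The 12 red points on the left have an adjusted p under 0.10 and the 2 of them outside the dotted lines pass the fold of 1.5. No point on the right has an adjusted p under 0.10.

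On the processed scale used here, most intervals of the difference were narrow. The 95% confidence interval of the difference lay wholly within a fold of 1.5 in either direction for 578 of 742 probes (77.9%), and for 599 (80.7%) without the 2 dimmest arrays. The median distance from the estimate to either end of the interval was 0.22 on the log2 scale. A fold of 1.5 or more was reached by 13 probes, 8 higher and 5 lower, and 11 of these did not pass the adjusted p. Those probes had wide spread, and for them a change of this size is neither shown nor bounded. The intervals hold for this processing only, since the offset compresses dim probes and saturation limits the brightest. They also rest on 1 spread per probe shared by all 18 groups, while the month 6 SD was the larger for 547 probes (73.7%). An interval can be too narrow where the DM spread was larger. With the 2 groups alone the SE of probe ORB1119 was 0.22 against 0.16, and that of probe ORB_0511517 0.07 against 0.12. Probe 1203, described below, counted as within the limit, with an interval from -0.35 to -0.13. Its difference was -1.09 in the deposited values and -1.06 with plain subtraction. Those 2 settings called 139 and 115 probes past the fold limit, and 0 without the 2 dimmest arrays.

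Probe ORB_0511517 was the higher probe with the smallest p. In DM mice of month 12 its log2 intensities were 6.63, 6.77, 6.79, 6.77, 6.79, 6.98, 6.68 and 6.64 (replicates 1 to 8). In DM mice of month 6 they were 6.47, 6.46, 6.15, 6.09, 6.26, 6.39, 6.34 and 6.04. The groups did not overlap. The 3 lowest month 6 values, 6.04, 6.09 and 6.15, were those of replicates 8, 4 and 3, the 3 dimmest of the 16 arrays. The probe was picked for its small p, so the lack of overlap is a description only. The probe was above threshold on 8 of 8 arrays at month 12 and on 4 of 8 at month 6, so its month 6 level lay at the edge of detection. The log2 difference was 0.48 ± 0.12 (SE, limma, adjusted p = 0.0161), a 1.4-fold difference under the fold limit. It was 0.43 ± 0.13 without the 2 dimmest arrays (adjusted p = 0.290). The size of this dim probe's difference depended on the processing: it was 1.16 with normexp and no offset (adjusted p = 0.0152), 0.84 with plain subtraction (adjusted p = 0.0358), 0.81 in the deposited values (adjusted p = 0.0440) and 0.07 with normexp and trimmed-mean scaling (adjusted p = 0.760).

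Probe 1822 was the other higher probe. Its log2 intensities were 7.6, 7.51, 7.51, 7.70, 7.25, 7.53, 7.44 and 7.68 in DM at month 12. At month 6 they were 7.41, 7.29, 6.58, 6.29, 7.27, 7.03, 7.49 and 7.28. The 2 lowest values, 6.58 and 6.29, were those of the 2 dimmest arrays, and on the second of them the probe was not above threshold. The difference was 0.45 ± 0.12 (SE, limma, adjusted p = 0.0253), and 0.23 ± 0.12 without those arrays (adjusted p = 0.874). It was 0.71 with no offset (adjusted p = 0.0194), 0.30 in the deposited values (adjusted p = 0.116) and 0.06 with normexp and trimmed-mean scaling (adjusted p = 0.646). The ranges overlapped, from 7.25 to 7.70 at month 12 and from 6.29 to 7.49 at month 6.

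Probe 1203 was the lower probe with the smallest p, and it was dim at both months. Its log2 intensities were 6.46, 6.34, 6.32, 6.26, 6.37, 6.43, 6.39 and 6.38 in DM at month 12. At month 6 they were 6.54, 6.66, 6.98, 6.58, 6.63, 6.57, 6.31 and 6.59. The dimmest array, replicate 3, gave the highest month 6 value, and replicate 7 fell inside the month 12 range. The difference was -0.24 ± 0.06 (SE, limma, adjusted p = 0.0161), a 1.18-fold difference, and -0.18 ± 0.06 without the 2 dimmest arrays (adjusted p = 0.290). It was larger in size in the deposited values, at -1.09 (adjusted p = 0.0112), with plain subtraction, at -1.06 (adjusted p = 0.0117), with trimmed-mean scaling of normexp values, at -0.56 (adjusted p = 0.101), and with no offset, at -0.53 (adjusted p = 0.0194). The probe was above threshold on 6 of 8 arrays at month 12 and 8 of 8 at month 6.

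Probe ORB_1210474 was the other lower probe. It measured 6.82, 6.73, 6.5, 6.57, 6.65, 6.43, 6.89 and 6.50 in DM at month 12. At month 6 it measured 6.67, 6.97, 7.34, 7.35, 6.84, 6.86, 6.66 and 7.16. The 2 highest values, 7.34 and 7.35, were those of the 2 dimmest arrays, and the third highest, 7.16, that of replicate 8, the third dimmest of the 16. The difference was -0.34 ± 0.08 (SE, limma, adjusted p = 0.0161), and -0.22 ± 0.08 without the 2 dimmest arrays (adjusted p = 0.577). In the deposited values it was -0.93 (adjusted p = 0.0112), with plain subtraction -0.90, with no offset -0.62 and with trimmed-mean scaling of normexp values -0.54 (adjusted p = 0.101). All 8 month 12 values lay below the month 6 median of 6.92.

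The 2 called probes are named because they were the only calls, after their values were seen. Probe ORB_1210072 ran from 7.34 to 7.88 (median 7.67) in DM at month 12 and from 7.84 to 9.39 (median 8.12) in DM at month 6. The ranges overlapped by 1 array of each month, and the highest value was that of the dimmest array. Its means were 7.66 ± 0.16 at month 12 and 8.29 ± 0.50 at month 6 (SD, n = 8 each), a log2 difference of -0.63 ± 0.15 (SE, limma, adjusted p = 0.0161) or 1.54-fold. Without the 2 dimmest arrays the difference was -0.50 ± 0.16 (adjusted p = 0.290).

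Probe ORB1119 ran from 6.73 to 7.35 (median 6.95) in DM at month 12 and from 6.95 to 8.81 (median 7.34) in DM at month 6. Its 3 highest month 6 values, 8.81, 8.05 and 7.89, were those of the 3 dimmest of the 16 arrays. The other 5 month 6 values ran from 6.95 to 7.41, 4 of them inside the month 12 range. The difference was -0.60 ± 0.16 (SE, limma, adjusted p = 0.0253) or 1.51-fold, and -0.34 ± 0.16 without the 2 dimmest arrays (adjusted p = 0.774). It was -0.998 in the deposited values (adjusted p = 0.0160) and -0.96 with plain subtraction (adjusted p = 0.0181). The part of brightness in these differences was not tested beyond the values given here and those with brightness as a term of the fit.

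**Figure D3:**
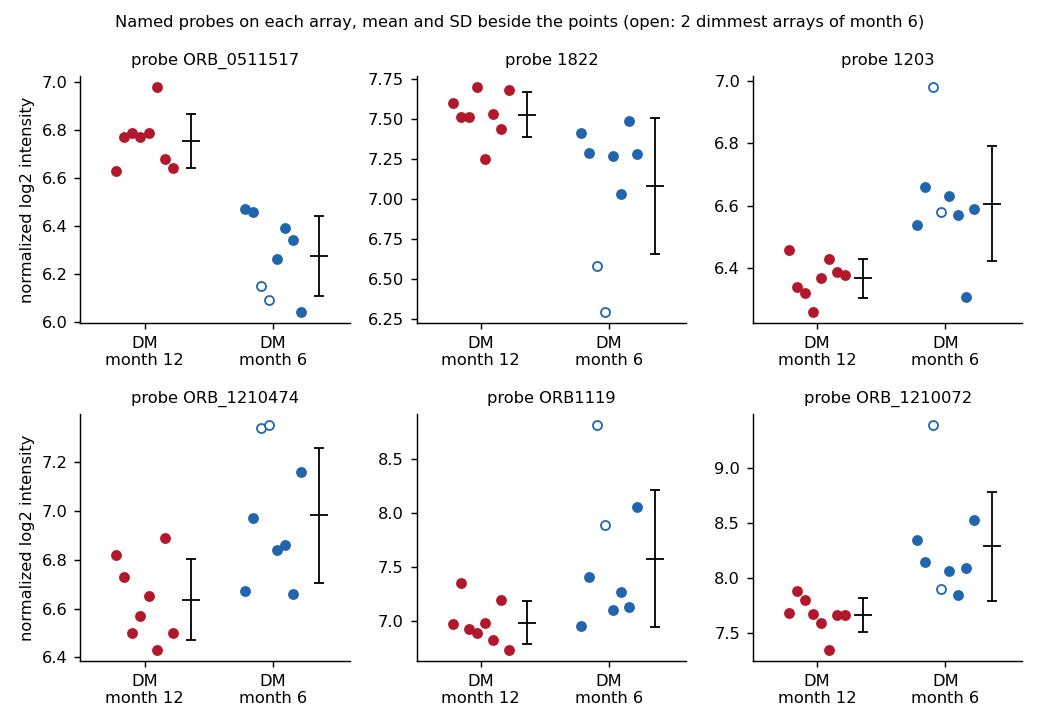
Normalized log2 intensity of 6 probes on each DM array of month 12 (left in each panel) and month 6 (right), with the mean and SD beside the points. The open points are the 2 dimmest arrays. They hold the lowest 2 values of probe 1822 (6.58 and 6.29) and the highest 2 of probe ORB_1210474 (7.34 and 7.35). The 2 months do not overlap for probe ORB_0511517, where the open points, at 6.15 and 6.09, are among the lowest of month 6.

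With array brightness as a linear term, limma called 0 probes and 0 passed an adjusted p under 0.10 (67 at an unadjusted p under 0.05). The 12 probes, chosen on these same arrays, kept their direction, with a median of 81.5% of their difference left. A kept direction, here and with scan day below, is therefore a description only. Scan day moved the result in another way. With scan day as a fixed term 11 probes passed an adjusted p under 0.10, of which 6 were among the 12, and the 12 probes kept their direction with a median of 88.4% of their difference. The 2 probes then called were different ones, both higher at month 12 and named after their values were seen: probe 3197 at 1.01 ± 0.31 (SE, adjusted p = 0.0995) and probe ORB_0511560 at 1.18 ± 0.36 (adjusted p = 0.0995).

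Those 2 probes had the larger differences but also the wider spread. Probe 3197 ran from 9.99 to 11.06 (median 10.51) in DM at month 12 and from 8.54 to 10.48 (median 9.79) in DM at month 6, a difference of 0.80 ± 0.29 (SE, limma, adjusted p = 0.155) without the day term. Probe ORB_0511560 ran from 8.49 to 9.73 (median 8.89) at month 12 and from 6.63 to 9.27 (median 8.24) at month 6, a difference of 0.96 ± 0.34 (adjusted p = 0.155). Their differences stayed at 0.94 ± 0.31 and 0.95 ± 0.37 without the 2 dimmest arrays, with adjusted p of 0.290 and 0.654. Both were above threshold on 8 of 8 arrays of each month.

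Within the days that held both groups, only 1 array of each month could be compared. Of the 12 probes past the adjusted p, 10 had the same direction on day 5 and 12 on day 6, against 470 (63.3%) and 475 (64.0%) of all 742 probes. These arrays were among the 16 that chose the 12 probes, so the counts are a description and no independent check. Probe ORB_0511517 differed by 0.64 on both days. Probe ORB_1210072 differed by -0.75 on day 5 and -0.87 on day 6, and probe ORB1119 by -0.31 and -0.86. The month 6 array of day 6 was replicate 8, the third dimmest of the 16. Probe 1203 went the other way on day 5, at 0.12.

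The month 6 group was more variable, and this rested on the 2 dimmest arrays. The median SD over the 742 probes was 0.19 at month 12 and 0.28 at month 6, and the month 6 SD was the larger for 547 probes (73.7%). It was over 2 times the month 12 SD for 170 probes, and the reverse held for 13. Without the 2 dimmest arrays the median SDs were 0.19 at both months, and the month 6 SD was the larger for 361 probes (48.7%).

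With no array left out, fewer probes were above threshold on all DM arrays of month 6 than on all of month 12. Of 1262 mouse probes, 594 were above threshold on all 8 DM arrays of month 12 and 512 on all 8 of month 6, with 494 in both. Of the 100 that reached all arrays only at month 12, 78 missed month 6 only through the 2 dimmest arrays. No probe was above threshold on all arrays of 1 month and on none of the other. Without the 2 dimmest arrays, 636 probes were above threshold on all 6 month 6 arrays, against 594 on all 8 of month 12. Then 64 reached all arrays only at month 6 and 22 only at month 12, with fewer arrays to pass at month 6.

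The differences also varied with the level of the probe. Among the 60 brightest probes (mean log2 intensity over all arrays of 13.84 or more) 3 had an unadjusted p under 0.05 and 0 passed the adjusted p. Of these 60, 38 had a spot at the highest value the scanner gives on at least 1 of the 16 DM arrays and 7 on all 16, so differences between the brightest probes are limited by saturation and their lack of calls shows nothing about them. The median absolute difference there was 0.05. It was 0.19 among the 187 next brightest probes, 0.12 among the following 247 and 0.05 among the 248 dimmest, whose values the offset compresses. Of the 12 probes past the adjusted p, 1 lay in the second of these classes, 8 in the following one and 3 in the dimmest. Only 6 of the 12 were above threshold on all 16 arrays.

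Mice exposed to particles gave a second reading of the same interval on other animals. They shared no mouse with the DM groups, but they shared scan days with them. In the mean of the 5 exposed groups (40 mice at each month), 73 of 742 probes (9.84%) passed an adjusted p under 0.10 with no fold limit, 40 higher and 33 lower at month 12. Only 1 (0.135%) was called with the fold limit, probe 3241, at 0.66 ± 0.23 (SE, limma, adjusted p = 0.0595). Probe 3241 differed by -0.15 ± 0.50 (SE, adjusted p = 0.939) in DM, where it ran from 7.88 to 9.17 at month 12 and from 7.09 to 10.69 at month 6. The SE of the exposed mean was smaller than that of DM, at a median of 0.05, so more probes of small difference could pass.

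The probes singled out in DM had the same direction in exposed mice, with smaller differences. All 12 probes past the adjusted p in DM had the same direction in the exposed mean, and 9 passed an adjusted p under 0.10 there, against a background of 73 of 742 (9.84%). Over all 742 probes 527 (71.0%) had the same direction. The exposed difference was a median of 43.9% of the DM difference over those 12 probes, which were picked for being large in DM. Read the other way, 69 of the 73 probes of the exposed mean had the same direction in DM. Without the 2 dimmest arrays 66 did, against 503 of all 742 probes. An unadjusted limma p under 0.05 in DM, in that direction, was reached by 36 of the 73, and by 17 without the 2 dimmest arrays.

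Probe ORB_1210072 was lower at month 12 in each of the 5 exposed groups, with log2 differences from -0.17 to -0.58 and a mean of -0.36 ± 0.07 (SE, limma, adjusted p = 0.000168). Probe ORB1119 was lower in all 5 as well, by -0.24 to -0.55, with a mean of -0.37 ± 0.07 (adjusted p = 0.000168). Probe ORB_0511517 was higher in all 5, by 0.12 to 0.39, with a mean of 0.24 ± 0.05 (adjusted p = 0.00139). The lower pair shared the lowest adjusted p of the exposed comparison with probes 1063 and ORB_1112329, higher at month 12 by 0.35 and 0.24 and named after their values were seen, and all 4 mean differences were under the fold limit.

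Probe ORB_1210474 was at -0.15 ± 0.04 (SE, limma, adjusted p = 0.00417) in the exposed mean and probe 1203 at -0.07 ± 0.03 (adjusted p = 0.0621). Probe 1822 was at 0.10 ± 0.05 (adjusted p = 0.285) and did not pass there. Of these 3, probe 1203 was at 0.00 with crocidolite, and the other exposed values had the direction of DM.

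**Figure D4:**
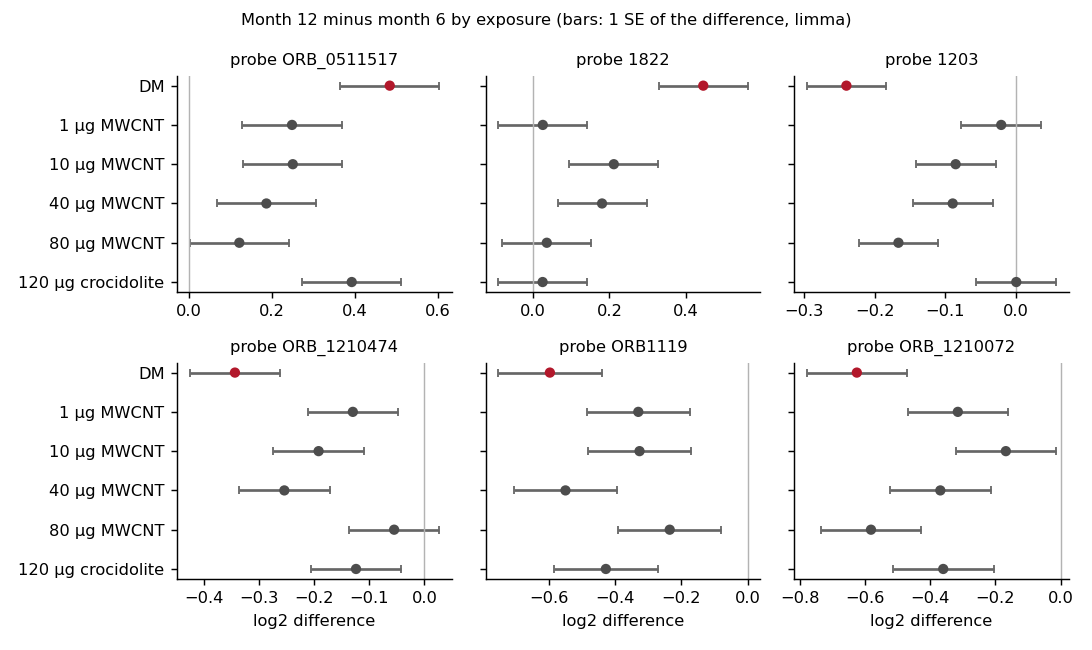
Log2 difference between month 12 and month 6 (x axis, bars 1 SE of the difference) for 6 probes in DM mice (red, top) and in each exposed group. For 5 of the probes all 5 exposed values lie on the same side of zero as the DM value, and probe 1203 is at 0.00 with crocidolite.

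Exposed mice could be compared within 3 scan days that held both months (days 3, 5 and 6). Probe ORB_0511517 was higher at month 12 on each of these days, by 0.26 to 0.47. The other 5 probes did not keep their direction on all 3. Probe ORB_1210072 ran from -0.44 to 0.03, probe ORB1119 from -0.38 to 0.09 and probe ORB_1210474 from -0.22 to 0.03. Each of these was lower on 2 of 3 days. Probe 1822 ran from -0.04 to 0.16, higher on 2 of 3 days, and probe 1203 from -0.05 to 0.01, lower on 1 of 3. Day 3 held only 2 exposed arrays of month 6. With scan day as a fixed term, 15 probes passed an adjusted p under 0.10 in the exposed mean, of which 12 were among the 73.

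No probe passed the test of a difference between the DM change and the exposed change. The test gave 0 of 742 probes with an adjusted p under 0.10 and no call (limma, lowest adjusted p = 0.940), and 25 at an unadjusted p under 0.05, 10 of them higher in DM. Among those 25 were probe 1822 (difference of changes 0.35, unadjusted p = 0.00697), probe 1203 (-0.17, unadjusted p = 0.00760), probe ORB_1210474 (-0.19, unadjusted p = 0.0338), probe 3197 (0.64, unadjusted p = 0.0448) and probe ORB_0511560 (0.76, unadjusted p = 0.0444), with limma adjusted p of 0.940 to 0.982. Without the 2 dimmest arrays there were 0 and 6. On the same processed scale, and with the same shared spread, the 95% interval of the difference of changes lay within a fold of 1.5 for 593 probes (79.9%). Across probes, which are not independent, the DM and exposed differences had a Pearson correlation of 0.70 (Spearman 0.63, n = 742), and 0.65 (Spearman 0.59) without the 2 dimmest arrays. The points share the probes and the scan days.

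**Figure D5:**
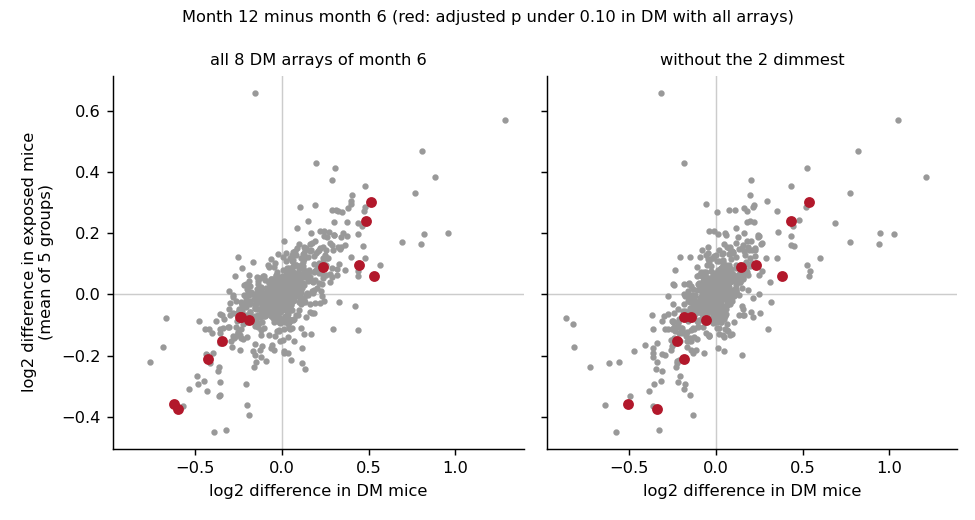
Log2 difference between month 12 and month 6 in DM mice (x axis) against the mean of the 5 exposed groups (y axis) for the 742 probes, with all DM arrays (left) and without the 2 dimmest of month 6 (right). The 12 red probes, those with an adjusted p under 0.10 in DM with all arrays, lie at the lower left and upper right, on the same side of zero in both, and the correlation over all probes is 0.70 on the left and 0.65 on the right.

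Earlier results of these data gave 4 probes for a difference from month 1. Of the 4 probes that earlier results of these data gave for a difference from month 1, none passed between months 12 and 6 in DM, with log2 differences of -0.13 to 0.47 (limma, lowest adjusted p = 0.162).

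The level at month 1 gives a further description of the named probes. Probe ORB_1210072 averaged 7.77, 8.29 and 7.66 in DM at months 1, 6 and 12, and probe ORB1119 7.19, 7.58 and 6.98. Probe ORB_0511517 averaged 6.63, 6.27 and 6.76, probe 1822 7.35, 7.08 and 7.53, probe 1203 6.45, 6.61 and 6.37, and probe ORB_1210474 6.85, 6.98 and 6.64. For all 6 the month 6 mean was the extreme one, with the means of months 1 and 12 on the same side of it. Without the 2 dimmest arrays the month 6 means were 8.16, 7.32, 6.33, 7.29, 6.55 and 6.86, for the probes as listed above. Those of probes 1822 and ORB_1210474 then lay close to their month 1 means of 7.35 and 6.85. The 6 probes were picked for their month 6 to month 12 difference, so the order of the months is a description only.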

How the data were processed

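Blood RNA was hybridised to custom multi-species miRNA arrays, 4 per slide. The authors isolated low-molecular-weight RNA, labelled it with 1 fluorescent dye and extracted spots with GenePix Pro 4.1.1.4. The deposited scanner files hold median foreground and local background intensity per spot, not normalized. The deposited value table holds log2 normalized intensity of 1262 mouse probes, and it matched, array by array, the log2 of background-subtracted spots averaged per probe plus 1 constant (SD of the difference at most 1.21e-09). Each array had 10336 spots, and 24 array places of the scanned slides had no sample here and were not used. A scan at another detector setting was not used.

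In limma 3.58.1 (R 4.3.3), the background of all spots was corrected by normexp (offset 50), spots marked bad were left out, values were taken to log2, the 3 spots of a probe averaged, and the 1262 probes quantile normalized. The detection threshold of an array was the 10% trimmed mean of its 21 empty spots plus 5 times their SD. The study used control spots and the area between spots, so its threshold differs. Group means of all 144 arrays were fitted with lmFit and eBayes, with p-values two-sided. The thresholds of a call are those of the study's methods. Array measures were tested by exact permutation. The fit was checked on simulated arrays with known changes. Those changes were larger than the differences found here for probes past the adjusted p. The simulated noise had the same SD in all groups, with no dim arrays and no scan days. The check therefore does not bear on small changes, brightness or scan day. Alternatives covered the background correction, scaling, the deposited table, the filter, brightness, slide, scan day, position, the arrays in the fit, an unmoderated 2-group ANOVA, the fold limit and each array left out in turn. Leaving out the dimmest arrays together with another scaling was added after seeing the data.

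Groups came from the source labels. The labels give no replicate numbers, so replicates are numbered in order of deposit only to name them. Each array is 1 mouse by the study's methods. Members, probe lists and rules were chosen with earlier results of these data known. The rule for named probes took the 2 higher and the 2 lower probes with the smallest p in DM. It also allowed 4 probes of earlier results for month 1. Lists of cell type miRNAs could not be looked up, since identifiers are not paired with names here.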

Additional observations from a re-analysis of the deposited data

Results flagged for a closer look

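In 24 checks of the 8 arrays of a group by Dixon's criterion (4 array measures and 8 probes, each at month 12 and month 6), 3 gave an array apart from the other 7, and chance alone flags about 1 group in 20. The detection threshold of DM month 6 replicate 3, the dimmest array, was 43.2 intensity units, against 18.3 to 26.2 on the other 7. The same array had the highest value of probe ORB_1210072, 9.39, and for probe ORB_0511517 DM month 12 replicate 6 stood apart at 6.98. No probe was flagged for a different change in DM and in exposed mice.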

How the results depend on the processing

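The number of called probes in DM was 2. It was also 2 with normexp and trimmed-mean scaling (1 of the same probes), with no filter, with the 494 probes above threshold on all 16 arrays (which hold neither ORB_0511517, 1822 nor 1203), with array position and, for other probes, with scan day as a term. It was 0 without the 2 dimmest arrays, with array weights, with brightness as a term, with slide as a random block, with the 2 groups alone and with the 2-group ANOVA (in this order, the unadjusted p was under 0.05 for 41, 75, 67, 99, 45 and 43 probes). It was 6 with no offset and 12 with no fold limit. Plain subtraction with trimmed-mean scaling gave 115 (8 higher, 107 lower) and the values of the authors 139 (8 higher, 131 lower), with the median over all probes at -0.27 and -0.30 in these fits. With the 2 dimmest arrays also left out, the fits with no offset, with no fold limit, with plain subtraction, with the values of the authors and with normexp and trimmed-mean scaling called 0 (20 to 56 probes at an unadjusted p under 0.05), and the medians with plain subtraction and with the values of the authors were -0.13 and -0.13. Leaving out 1 array gave 0 to 7 calls: 0 without DM month 6 replicate 3 or DM month 12 replicate 6, 1 without DM month 6 replicate 8 or DM month 12 replicate 4 or 8, 4 without DM month 6 replicate 1, 6 or 7, 5 without DM month 12 replicate 1 and 7 without DM month 6 replicate 2. At an adjusted p under 0.10 there were 0 (without DM month 6 replicate 3) to 38 probes. With slide as a block 8 probes still passed the adjusted p, and the 2 called ones, at -0.57 and -0.56 (adjusted p = 0.0441 each), missed only the fold limit. With the 2 groups alone 1 probe passed it, ORB_0511517 (adjusted p = 0.00494), and ORB_1210072 and ORB1119 were at adjusted p of 0.315 and 0.545.

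In the exposed mean, 1 call became 5 with plain subtraction and trimmed-mean scaling, 5 with the values of the authors, 2 with no offset, 0 with brightness or scan day as a term (128 and 111 probes at an unadjusted p under 0.05) and 73 with no fold limit. The difference between the DM and exposed changes gave 0 calls under all 13 alternatives run (4 to 71 probes at an unadjusted p under 0.05). The 6 named probes kept their direction in all 201 refits and lost the adjusted p in 68. These refits used all or most of the arrays that chose the probes. The local background difference was -0.50 and turned to 0.042 without the 2 dimmest arrays, and the share of probes with the larger month 6 SD was 73.7% and then 48.7%. No paired analysis was possible because, by the study's methods, different mice were sacrificed at each month. Brightness and scan day limit what these 16 arrays can show, and the causes of the changes were not tested.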
